A study of Mus musculus with 8 samples.

Results

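Genes of the primary and the motile cilium were followed through RNA-seq of mouse embryonic stem cells (ESC) before and after differentiation with retinoic acid (RA-DIFF). Members were the protein-coding genes of the deposited count table whose symbol begins with Ift, Bbs, Dnah, Dnaic, Dnai, Rfx or Tctn followed by a number, together with Foxj1, Pcm1, Arl13b and Mks1. There were 53 of them among the 32567 genes of the table, of which 19027 are protein-coding. They were 14 Ift genes, 8 Bbs genes, 17 axonemal dynein genes, 8 Rfx genes and Foxj1, 3 genes of the transition zone (Tctn1, Tctn3 and Mks1), Arl13b and Pcm1; the table lists Tctn2 under another biotype, and it was left out.

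The study compared a wild-type ESC line with a line that carries 2 copies of the Hdh ex4/5 allele, a targeted null allele of Htt, the mouse orthologue of the Huntington's disease gene, to ask which regulators of development respond to Htt dosage. Each genotype was sequenced as undifferentiated ESC and as RA-DIFF cells, which were grown as embryoid bodies (EBs), floating aggregates in which ESC differentiate, exposed to retinoic acid, dissociated and collected soon after plating. This gives 4 RNA-seq libraries and 4 small RNA libraries, with 1 library per condition and assay, so no value below has a replicate and no p-value is given. Each genotype is 1 cell line, the ESC had been kept on feeder layers of mouse embryonic fibroblasts or on gelatin and were passaged without feeders ahead of EB formation, and EBs hold several cell types; in such bulk RNA, fewer cells of a type and less RNA per cell cannot be told apart.

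A cilium is a projection of the cell surface built on a basal body around a shaft of microtubule doublets, the axoneme. Most cells can form a single primary cilium, which serves as a signalling organelle, and in the neural tube Hedgehog signals are received through it. Intraflagellar transport (IFT) particles carry cargo along the axoneme, with the IFT-B complex needed for movement towards the tip and the IFT-A complex for the return; the BBSome moves membrane proteins out of the cilium; and the transition zone is the gate at its base. Motile cilia beat by means of outer and inner dynein arms, whose heavy chains are the Dnah proteins. RFX factors bind the X-box, a motif in promoters of ciliary genes, and FOXJ1 is the transcription factor of the motile cilium programme, known from the embryonic node, the floor plate of the neural tube and multiciliated epithelia.

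Total counts were between 63617410 and 110569127 per RNA-seq library, and levels are CPM (each count relative to the scaled library total) after TMM scaling. A gene was called higher or lower when the log2 ratio of CPM between libraries passed 0.75 (1.68-fold) in either direction and the mean of its 4 log2 CPM values exceeded 0. The study's methods name the same fold limit and a limit on log2 CPM in edgeR, whose own average was run as an alternative. They also require an edgeR test at an assumed dispersion of 0.1, which 1 library per condition cannot estimate; an exact test at that dispersion was run here as an alternative too, and the main calls it ends are named beside the results; it also ended those of Bbs10 under both labels, of Bbs9, Tctn1, Dnah2, Dnah7a, Dnah11, Dnah17 and Rfx2 under wild-type labels, and of Mks1, Tctn3 and Dnah5 under Htt-null labels, all with RA-differentiation. In all, 14417 genes passed the expression limit. They included 46 of the 53 members; Dnah3, Dnah7c, Dnah9, Dnah12, Dnah14, Rfx6 and Rfx8 did not pass. Intervals are 95% exact intervals that cover counting error only, and amplified reads are not independent molecules. Htt itself was at 166 and 111 CPM in the ESC libraries labelled wild type and Htt-null, and at 73.3 and 98.7 CPM in the RA-DIFF libraries labelled wild type and Htt-null. The log2 ratio, -0.58 in ESC and 0.43 in RA-DIFF, therefore went against the labels after differentiation. In the study's supplementary spreadsheet the values of each RA-DIFF genotype match the deposited column labelled as the other one. Directions between the RA-DIFF libraries hold for the labels as deposited and turn if the labels are exchanged. In that case each RA comparison made here would pair ESC and RA-DIFF cells of different genotypes. Between ESC and RA-DIFF, all 8 pluripotency markers were called lower and all 8 neural progenitor markers higher under both labels.

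The X-box can be read directly in the promoters. RefSeq promoters on GRCm38.p6, 250 bases before to 50 after the start of a gene, were found for 47 members (48 promoters, since Rfx4 has more than 1). The core GTTGCC, the shared part of each arm of the X-box, searched on both strands, was in 21 of the 48, against 12.5% of all 32851 promoters. A more complete X-box, written here as GTNNCC and GGNNAC with at most 3 bases between them, a form that reads alike on both strands, was in 9 of 48, against 3.86% of all promoters. It was found in 2 of 11 Ift promoters, 3 of 8 Bbs promoters and 3 of 3 transition zone promoters, and in 0 of 16 axonemal dynein promoters. The core, with or without a pair, was in 5 of 11 Ift, 3 of 8 Bbs, 3 of 3 transition zone and 5 of 16 dynein promoters. These 5 were the promoters of Dnah10, Dnaic2 and the closely related Dnah7a, Dnah7b and Dnah7c. The searches overlap, since some pairs contain a core. The forkhead motif GTAAACA, on either strand, was in 2 of 48 promoters (Dnah17 and Rfx8), against 3.65% of all promoters. A match describes the letters in these windows and is not a bound site.

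Examples of the pairs, not all of them, are shown in 30-base windows, to let the arrangement be compared between members; capitals mark the pair from its first to its last base, and positions are counted from the gene's start, negative before it.
Bbs1, chr19:4906605-4906634, minus strand, first capital at 2: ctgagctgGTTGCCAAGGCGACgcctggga
Bbs4, chr9:59353464-59353493, minus strand, first capital at 24: ctcagctgGTCGCCCGGGAAACggtcggct
Bbs7, chr3:36613489-36613518, minus strand, first capital at -121: gcgccccgGTTGCCTTGGAAACcggccagc
Ift22, chr5:136908079-136908108, plus strand, first capital at -63: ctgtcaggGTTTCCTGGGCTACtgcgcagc
Ift22, chr5:136908109-136908138, plus strand, first capital at -33: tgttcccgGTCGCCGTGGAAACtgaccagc
Ift57, chr16:49699199-49699228, plus strand, first capital at -87: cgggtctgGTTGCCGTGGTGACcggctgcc
Mks1, chr11:87853183-87853212, plus strand, first capital at -24: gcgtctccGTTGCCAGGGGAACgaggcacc
Rfx2, chr17:56830959-56830988, minus strand, first capital at 35: ccgccatagagactGTAGCCGTGGAGACtg
Tctn1, chr5:122264411-122264440, minus strand, first capital at 37: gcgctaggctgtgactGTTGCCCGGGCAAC
Tctn3, chr19:40612351-40612380, minus strand, first capital at -140: ctcccagcgGTTGCCAGGTAACgggaacca

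The Ift22 promoter is shown whole as that of the Ift gene whose level differed most with RA-differentiation, and the Bbs7 promoter as that of a BBSome gene that was higher in both RA-DIFF libraries; capitals mark the pairs.
Ift22, chr5:136907900-136908199, plus strand: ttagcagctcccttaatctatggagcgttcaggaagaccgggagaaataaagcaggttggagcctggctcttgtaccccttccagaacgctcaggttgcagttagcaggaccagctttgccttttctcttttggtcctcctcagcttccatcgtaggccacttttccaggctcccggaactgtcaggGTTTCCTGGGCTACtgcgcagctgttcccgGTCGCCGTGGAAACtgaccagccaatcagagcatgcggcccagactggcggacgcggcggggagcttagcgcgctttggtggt
Bbs7, chr3:36613340-36613639, minus strand: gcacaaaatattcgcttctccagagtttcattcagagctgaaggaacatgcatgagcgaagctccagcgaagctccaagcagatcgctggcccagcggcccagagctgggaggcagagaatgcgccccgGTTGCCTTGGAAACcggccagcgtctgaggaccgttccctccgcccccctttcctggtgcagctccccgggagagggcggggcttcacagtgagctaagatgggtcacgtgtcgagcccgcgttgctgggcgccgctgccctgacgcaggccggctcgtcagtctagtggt

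With levels given per kilobase of annotated exon, the axonemal dynein genes lay below the Ift, Bbs and transition zone genes in all 4 libraries by their medians. The median Ift gene was at 6.46 and 5.78 CPM per kilobase in the ESC libraries labelled wild type and Htt-null and at 11.4 and 10.5 in the RA-DIFF libraries. The median axonemal dynein gene was at 0.210 and 0.175 in ESC and at 0.102 and 0.117 in RA-DIFF. All 14 Ift genes and all 8 Bbs genes were above 1 CPM per kilobase in every library. Among the 17 dynein genes, 4 and 3 were above that level in the ESC libraries and 1, the intermediate chain gene Dnaic1, in each RA-DIFF library. Pcm1, which encodes a scaffold of the centriolar satellites around the basal body, had the highest level of all members in every library, from 48.5 to 62.4 CPM per kilobase.

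**Figure D1:**
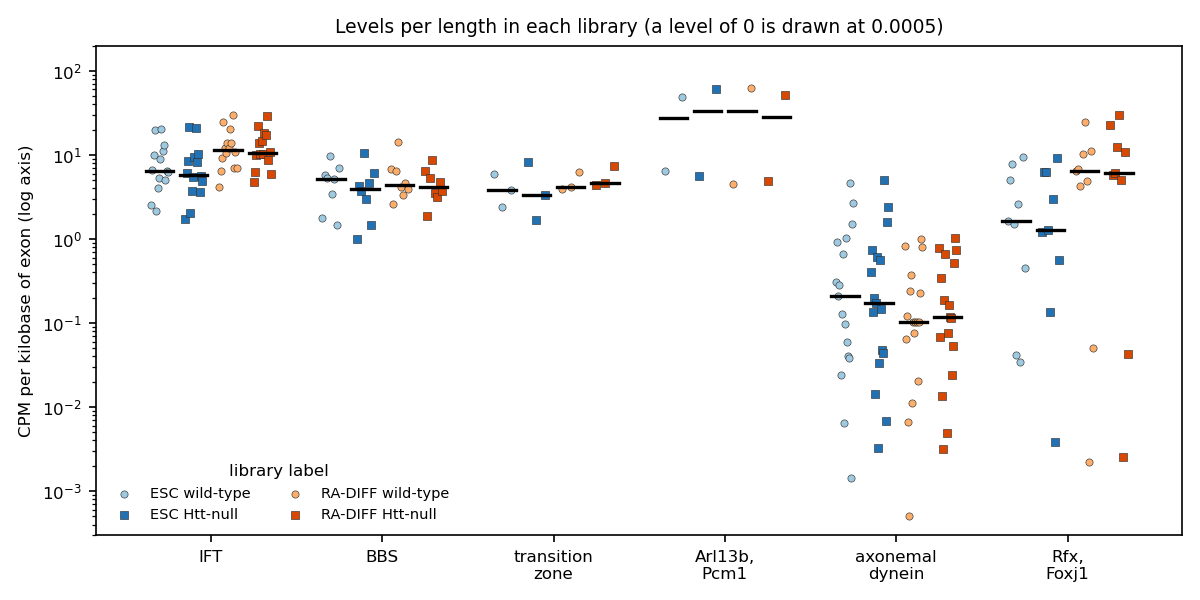
Level of each of the 53 members in CPM per kilobase of exon (log axis) in the 4 RNA-seq libraries, by class; each point is a gene and each black bar the class median. Ift medians lie between 5.78 and 11.4 and axonemal dynein medians between 0.102 and 0.210 in the 4 libraries.

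With RA-differentiation Ift genes were called in 1 direction, higher, while axonemal dynein genes were called in both. With the labels wild type, 16 of 46 members were called higher and 9 lower, where 32.4% and 24.9% of all genes passing the limit were called. With the labels Htt-null, 20 were called higher and 6 lower, against 32.9% and 23.5% of all genes. The share of members called higher was thus 34.8% under wild-type labels, near the background, and 43.5% under Htt-null labels. The median log2 ratio of the 14 Ift genes was 0.45 with wild-type labels and 1.02 with Htt-null labels, that of the 17 dynein genes -0.79 and -0.31, and that of all genes over the expression limit 0.11 and 0.16. Over that limit, which 5 dynein genes missed, the dynein medians were -0.68 and -0.11. The Ift median exceeded the median of the 17 dynein genes by 1.24 and 1.33 on the log2 scale. These comparisons share no library, and 14 members were called higher and 5 lower in both.

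**Figure D2:**
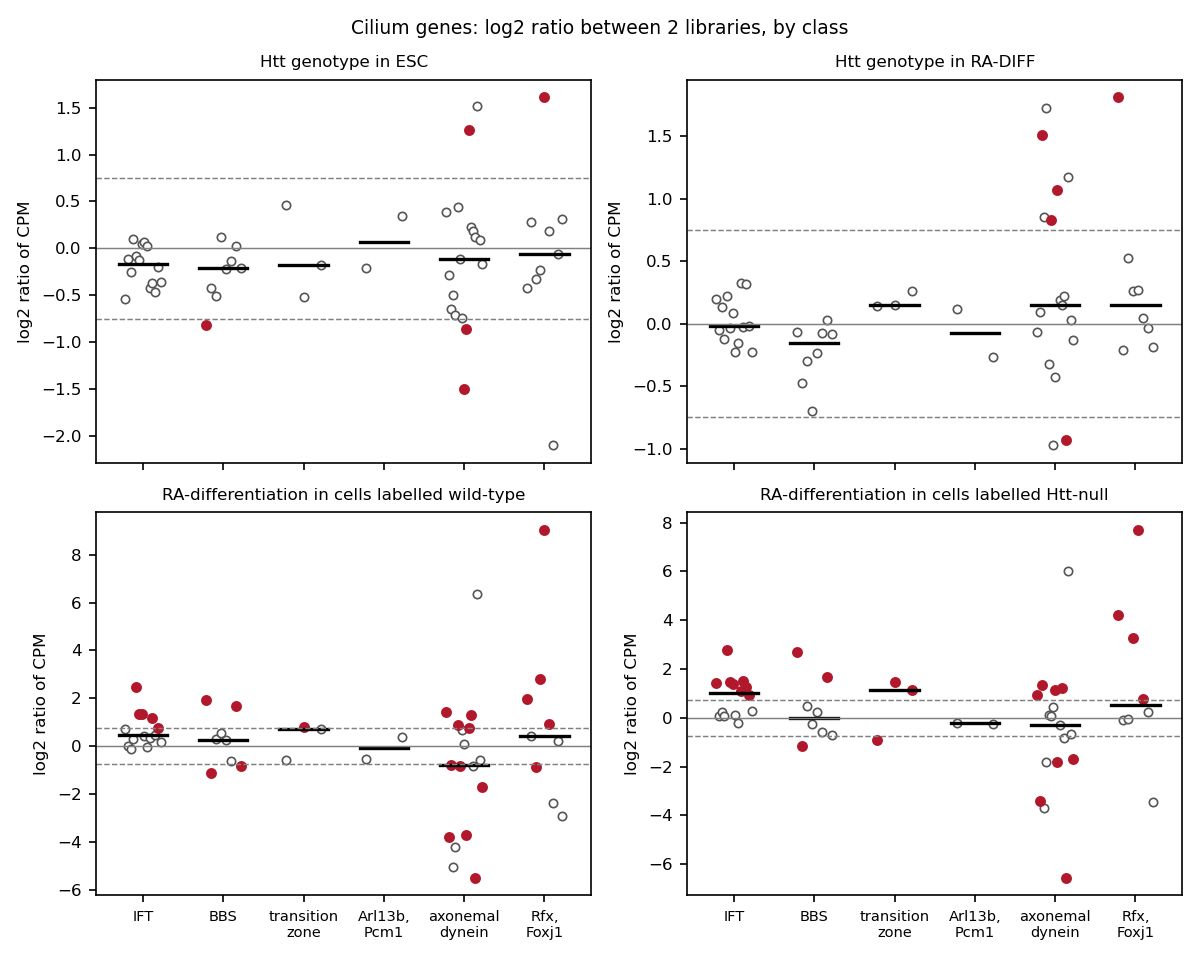
Log2 ratio of CPM between the libraries of each comparison for the members by class; filled points were called, dashed lines mark the fold limit of 0.75, black bars are class medians, and members at 3 counts or fewer in both libraries are left out. In both RA panels no Ift gene lies below the lower dashed line, while dynein genes reach -5.50 and -6.55.

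Of the 14 Ift genes, 5 were called higher with RA-differentiation under wild-type labels and 8 under Htt-null labels, the 5 among them, and none was called lower. These are 35.7% and 57.1% of the Ift genes, the first near the 32.4% of all genes and the second above the 32.9%. Ift22, which encodes a Rab-like GTPase of the IFT-B complex, was at 7.80 and 7.36 CPM in the ESC libraries (wild type, Htt-null) and at 43.5 and 50.6 CPM in the RA-DIFF libraries. Both RA-DIFF values were more than 5-fold above both ESC values, with log2 ratios of 2.48 and 2.78. Ift27, also a Rab-like GTPase of IFT-B, was at 11.7 and 10.7 CPM in ESC and 30.1 and 29.4 CPM in RA-DIFF. Ift43, an IFT-A subunit, was at 8.76 and 9.08 CPM in ESC and 22.6 and 24.0 CPM in RA-DIFF. The level of Ift74, part of the IFT-B core, was 34.8 and 27.0 CPM in ESC and 78.2 and 77.0 CPM in RA-DIFF. In each of these genes the RA-DIFF libraries were both above the ESC libraries and lay closer to each other than to either ESC library. The genes called under both labels were Ift22, Ift27, Ift43, Ift74 and Ift81; Ift57, Ift80 and Ift122 passed the limit only with Htt-null labels, where the ESC level was the lower of the pair. The difference between the labels in their RA response was not tested. Ift81 was no longer called under wild-type labels with DESeq2 size factors (0.71), and the test at a dispersion of 0.1 ended the calls of Ift74 and Ift81 under wild-type labels and of Ift57, Ift80 and Ift81 under Htt-null labels. At the other end, Ift52 (log2 ratios of -0.02 and -0.20) and Ift140 (-0.01 and 0.06) had nearly the same level at both stages.

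IFT subunits and motors that go by other symbols were called in the same direction: of 18 genes, 17 of them over the expression limit, 8 were called higher and 0 lower under each label (all genes, 32.4% and 32.9% higher and 24.9% and 23.5% lower), with median log2 ratios of 0.72 and 0.76. Ttc30b (1.78 and 2.39) and Wdr60 (1.47 and 1.84), an intermediate chain of the IFT dynein, had the highest values. Wdr34, its partner chain, had log2 ratios of -0.18 and -0.07.

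Among the Bbs genes, 2 were called higher under both labels and 2 (wild type) or 1 (Htt-null) lower. That is 25% higher, below the 32.4% and 32.9% of all genes, and 25% and 12.5% lower, against 24.9% and 23.5%. Bbs1, a BBSome subunit, was at 13.7 and 7.74 CPM in the ESC libraries and at 52.0 and 49.7 CPM in the RA-DIFF libraries, log2 ratios of 1.93 and 2.68. Bbs7, another subunit, was at 7.81 and 7.94 CPM in ESC and 24.9 and 25.4 CPM in RA-DIFF, a log2 ratio of 1.67 under either label. Bbs10, which encodes a chaperonin-like factor that helps to assemble the BBSome, went the other way, from 17.3 and 12.9 CPM in ESC to 7.96 and 5.73 CPM in RA-DIFF (log2 ratios of -1.12 and -1.17). The BBSome subunits thus did not share a direction: Bbs9 had log2 ratios of -0.82 and -0.70 and Bbs5 of -0.62 and -0.56, and the median of the 8 Bbs genes was 0.27 and -0.003. Of 5 BBSome genes with other symbols, 2 and 3 were called higher and 0 lower, counts too small to set against those shares. Ttc8, a BBSome subunit also known as Bbs8, had the highest log2 ratios of these, 2.97 and 3.31, and Mkks, a chaperonin-like factor, the lowest, -0.29 and -0.10.

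Tctn1 and Tctn3 encode tectonic proteins of the transition zone. The level of Tctn1 was 20.1 and 14.01 CPM in ESC and 34.8 and 38.6 CPM in RA-DIFF (log2 ratios of 0.79 and 1.46). That of Tctn3 was 12.4 and 10.96 CPM in ESC and 20.3 and 24.2 CPM in RA-DIFF (0.71 and 1.14). Both were higher in each RA-DIFF library than in either ESC library. Hvcn1 lies on the other strand over 19.0% of the exon bases of Tctn1. The methods state program defaults and name no strand option, and the counts alone do not show whether reads there were told apart. Mks1, a transition zone protein of the Meckel syndrome module, was at 24.0 and 33.0 CPM in ESC and 16.02 and 17.6 CPM in RA-DIFF (-0.58 and -0.90). Of 14 further transition zone genes, 7 were called higher and 1 lower with wild-type labels and 8 higher and 0 lower with Htt-null labels, where 32.4% and 32.9% of all genes were higher and 24.9% and 23.5% lower; among them Cep290 had log2 ratios of -0.84 and -0.11. Arl13b, a GTPase of the ciliary membrane, was at 33.1 and 28.6 CPM in ESC and 22.8 and 24.7 CPM in RA-DIFF, and Pcm1 at 362 and 459 CPM in ESC and 465 and 387 CPM in RA-DIFF. Neither passed the fold limit in any comparison.

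The axonemal dynein genes held the steepest decreases among the members. Dnah8, an outer arm heavy chain known mainly from sperm, was at 124 and 135 CPM in the ESC libraries and at 2.73 and 1.42 CPM in the RA-DIFF libraries. Its log2 ratios were -5.50 and -6.55, and in ESC it was the dynein gene with the highest level per length, 4.64 and 5.03 CPM per kilobase. Dnah10, an inner arm heavy chain, was at 14.6 and 11.96 CPM in ESC and 1.03 and 1.10 CPM in RA-DIFF (-3.80 and -3.42). Dnah6, also an inner arm chain, was at 13.6 and 7.48 CPM in ESC and 1.01 and 2.14 CPM in RA-DIFF (-3.73 and -1.79). In all 3 genes the ESC libraries were above the RA-DIFF libraries without overlap. Of the 12 dynein genes over the expression limit, 6 were called lower and 4 higher under wild-type labels, 50% and 33.3% against 24.9% and 32.4% of all genes. Under Htt-null labels 4 were called lower and 4 higher, 33.3% each against 23.5% and 32.9%, so the share called higher was near the background under both labels. The 4 called lower under both were Dnah6, Dnah8, Dnah10 and Dnaic2, and the 2 called higher under both were Dnah1 and Dnah7b. The test at a dispersion of 0.1 kept the 4 lower calls and ended that of Dnah7b under both labels and of Dnah1 under Htt-null labels.

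Dnah9, an outer arm heavy chain typical of respiratory and ependymal cilia, was singled out after its values were seen, since it ran opposite to Dnah8 but missed the expression limit through its few counts in ESC. With edgeR's average log2 CPM as the limit, an alternative added after the data were seen, Dnah9 was called higher in both RA comparisons and between the RA-DIFF libraries with the Htt-null label; it also passed between the ESC libraries, but on 2 and 7 counts, with an interval from -0.17 to 5.52 and through a limit met only by its RA-DIFF counts. Dnah12 was then called lower in both RA comparisons and higher between the RA-DIFF libraries. Dnah9 had 2 and 7 counts in the ESC libraries and 410 and 815 in the RA-DIFF libraries. Its log2 ratios with the prior count were 6.35 and 6.003. The ratio without the prior count under wild-type labels, which rests on 2 counts, was 159-fold with an interval from 43.6 to 1314. Thus the outer arm heavy chain genes with the highest level were Dnah8 in both ESC libraries, Dnah17 and Dnah9 in RA-DIFF cells labelled wild type (0.238 and 0.229 CPM per kilobase) and Dnah9 in those labelled Htt-null (0.519). Dnah12, under the limit as well, was at 3.36 and 2.36 CPM in ESC and 0.0803 and 0.162 CPM in RA-DIFF, while Dnah14 had 34 and 15 counts in ESC and 0 and 5 in RA-DIFF, where a count of 0 allows up to 3. Dnah3 had between 3 and 18 counts.

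**Figure D3:**
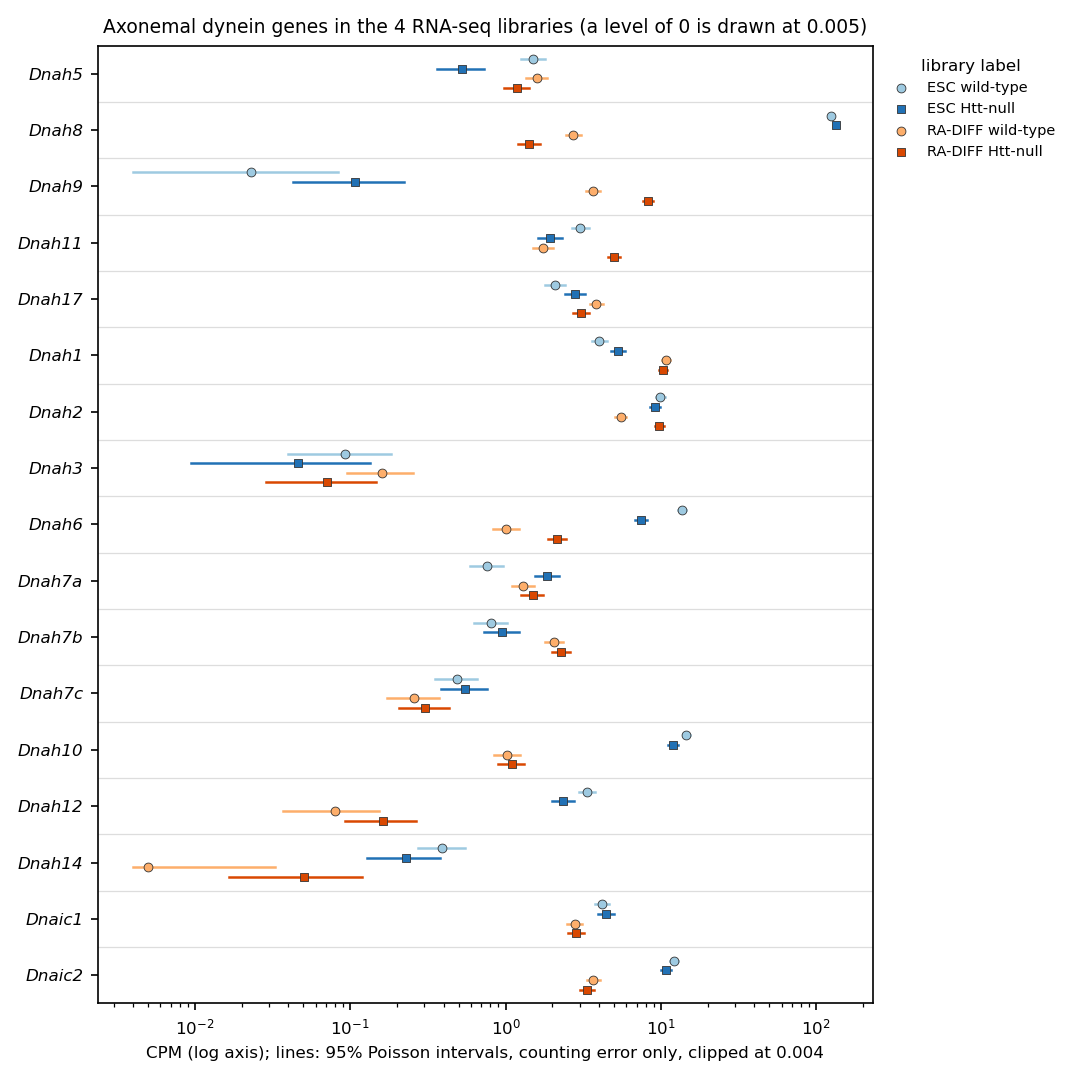
CPM (log axis) of the 17 axonemal dynein genes in each of the 4 RNA-seq libraries, with 95% Poisson intervals for counting error. Dnah8 lies at 124 and 135 CPM in the ESC libraries and at 2.73 and 1.42 CPM in the RA-DIFF libraries, and Dnah9 runs from 0.0231 and 0.107 to 3.66 and 8.28 CPM.

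Dnah7a, Dnah7b and Dnah7c are near-identical inner arm heavy chain genes on chromosome 1, among which counting can split reads, so their separate values are uncertain. Windows of their promoters placed on 1 core GTTGCC each, in capitals below, match at 27 of 30 positions between Dnah7a and Dnah7c, while that of Dnah7b matches them at 18 and 17, the core included.
Dnah7a, chr1:53706967-53706996, minus strand, first capital at -200: tcgctcctcacaGTTGCCtgccaccctctg
Dnah7b, chr1:46066678-46066707, plus strand, first capital at -163: tacaggagcacaGTTGCCacccacccttaa
Dnah7c, chr1:46425287-46425316, plus strand, first capital at -219: tcactcctcagaGTTGCCttccaccctctg
The level of Dnah7a was 0.761 and 1.85 CPM in ESC and 1.303 and 1.49 CPM in RA-DIFF, Dnah7b ran from 0.807 and 0.9505 to 2.05 and 2.27 CPM, and Dnah7c stayed between 0.259 and 0.552 CPM. Without these 3 genes the dynein median with RA-differentiation was -0.81 under wild-type labels and -0.27 under Htt-null labels.

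Other parts of the motile axoneme, such as dynein assembly factors, docking proteins, radial spokes and the central pair, were called in both directions with RA-differentiation. Of 29 such genes found in the table, 20 passed the expression limit, and 8 were called higher and 7 lower under wild-type labels and 11 higher and 5 lower under Htt-null labels, against 32.4% and 24.9%, and 32.9% and 23.5%, of all genes. Ccdc103 (log2 ratios of 3.99 and 3.54) and Hydin (-5.37 and -5.16), a central pair protein, marked the ends among the 20 under wild-type labels. Of 8 tabulated genes of the multiciliation programme, 5 passed the expression limit, and 1 of them was called higher and 4 lower under either label, where 24.9% and 23.5% of all genes were called lower. Foxn4, a forkhead gene of that programme, had log2 ratios of -3.46 and -4.14, while Ccdc78 had 2.29 and 4.39. The summed level of the 8 genes was 51.3 and 56.5 CPM in ESC and 18.6 and 17.0 CPM in RA-DIFF. Myb gave the largest part (29.5 and 31.0 CPM in ESC, 11.2 and 6.76 CPM in RA-DIFF). Next came Trp73 in ESC (12.5 and 13.9 CPM) and Ccdc78 in RA-DIFF with the Htt-null label (5.91 CPM).

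Of the 7 regulators over the expression limit, Rfx4, Rfx3, Foxj1 and Rfx5 were called higher with RA-differentiation under both labels, 57.1% against 32.4% and 32.9% of all genes. Rfx4, an RFX factor of the developing neural tube (chromosome 10, 84756062 to 84906538, plus strand), had 17 and 42 counts in the ESC libraries and 12916 and 13701 in the RA-DIFF libraries. That is 0.196 and 0.644 CPM against 115 and 139 CPM, with log2 ratios of 9.05 and 7.71, the highest of all members in both comparisons. Rfx3, an RFX factor that acts in primary and motile cilia, was at 16.5 and 14.04 CPM in ESC and at 114 and 137 CPM in RA-DIFF (2.79 and 3.28). Foxj1 (chromosome 11, 116330704 to 116335399, minus strand) was at 4.28 and 3.19 CPM in ESC and at 16.9 and 59.2 CPM in RA-DIFF, log2 ratios of 1.98 and 4.21. For these 3 genes every RA-DIFF library was above every ESC library, and only Foxj1 had RA-DIFF levels more than 3-fold apart.

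Rfx5, best known as a factor of MHC class II genes, was at 14.4 and 16.3 CPM in ESC and 27.0 and 27.8 CPM in RA-DIFF (0.91 and 0.77); 26.8% of its exon bases overlap B230398E01Rik on the other strand, which had at most 22 counts. The call of Rfx5 was lost with library size alone under Htt-null labels (0.70) and with the test at a dispersion of 0.1 under both. Rfx2, an RFX factor of motile cilia and sperm, was at 57.3, 45.7, 30.9 and 44.5 CPM in the libraries ESC wild-type, ESC Htt-null, RA-DIFF wild-type and RA-DIFF Htt-null, and passed the limit under wild-type labels alone (-0.89 against -0.04). Rfx1 lay between 32.7 and 43.3 CPM and Rfx7 between 139 and 168 CPM, without passing it. Rfx8 was at 0.969 and 1.21 CPM in ESC and 0.107 and 0.0914 CPM in RA-DIFF, and Rfx6 had 12 counts in 1 library and 1 in each of the others. Per length, the most abundant RFX gene was Rfx7 in ESC (9.46 and 9.06 CPM per kilobase) and Rfx4 in RA-DIFF (24.4 and 29.5).

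**Figure D4:**
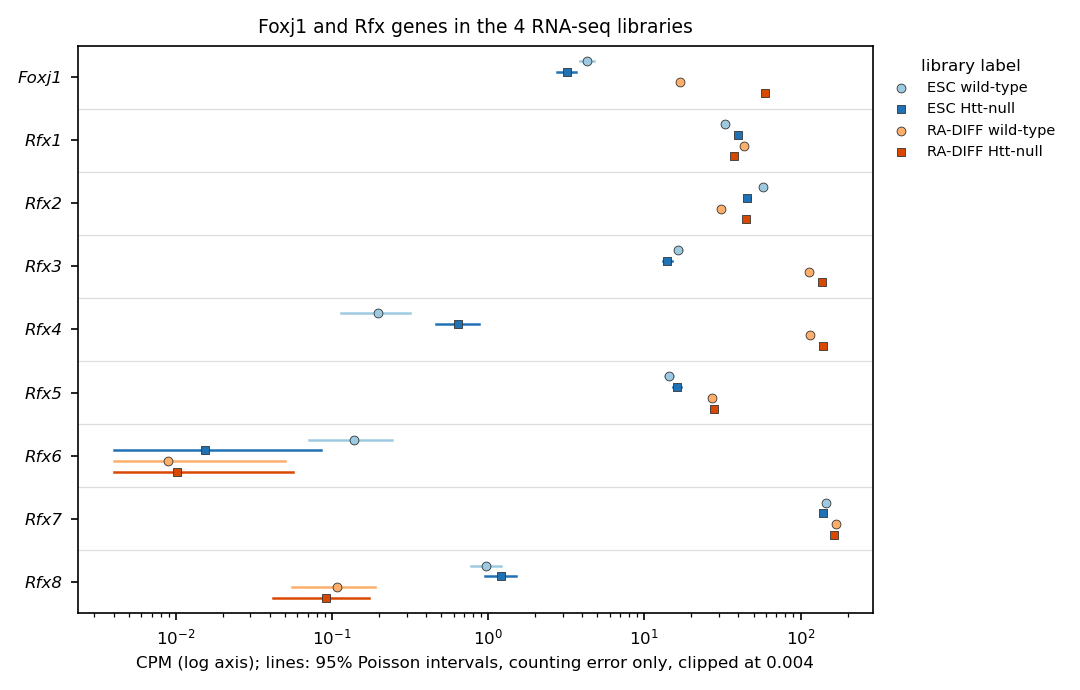
CPM (log axis) of Foxj1 and the 8 Rfx genes in each of the 4 RNA-seq libraries, with 95% Poisson intervals for counting error. Rfx4 runs from 0.196 and 0.644 CPM in ESC to 115 and 139 CPM in RA-DIFF, and Foxj1 stands at 59.2 CPM in RA-DIFF with the Htt-null label against 16.9 CPM with the wild-type label.

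In Htt-null ESC 2 of 46 members were called higher and 3 lower, where 3.93% and 2.64% of all genes were. None of them was an Ift gene: the 14 log2 ratios ran from -0.54 (Ift122) to 0.10 (Ift20), with a median of -0.16 against -0.04 over all genes. The lower group held Bbs1, at 13.7 CPM in wild-type and 7.74 CPM in Htt-null ESC (log2 ratio -0.82, interval from -0.97 to -0.67). It also held the dynein heavy chain genes Dnah5, an outer arm chain, at 1.51 and 0.521 CPM (-1.496, from -2.12 to -0.98), and Dnah6 at 13.6 and 7.48 CPM (-0.86, from -1.02 to -0.71). Higher in Htt-null ESC were Rfx4, with 42 counts against 17 (1.61, from 0.87 to 2.62), and Dnah7a, with 121 against 66 (1.26, from 0.84 to 1.74). Rfx4 passed the expression limit only through its RA-DIFF level and Dnah5 narrowly, at an average log2 CPM of 0.17, and the intervals of Bbs1 and Dnah6 include the fold limit. Genes on chromosomes 8 and 11 were higher as a whole in Htt-null ESC, with medians of 0.36 and 0.21. Between the RA-DIFF libraries (Htt-null over wild-type label) these medians were -0.22 and 0.01. With RA-differentiation the chromosome 8 median was 0.56 under wild-type labels and 0.004 under Htt-null labels. How these medians relate to the RA-DIFF labels was not tested. Bbs2, Pcm1 and Rfx1 lie on chromosome 8 and had log2 ratios of 0.12, 0.34 and 0.28 between the ESC libraries. Members on chromosome 11 went both ways there, among them Foxj1 at -0.42 and Mks1 at 0.46. After subtraction of its chromosome's median, an alternative added after the data were seen, Dnah6 was at -0.75 and no longer called. The test at a dispersion of 0.1 left Rfx4 and Dnah5 and ended the calls of Bbs1, Dnah6 and Dnah7a. Between the ESC libraries 6 of 13 fibroblast markers over the expression limit were called lower and 0 higher with Htt-null, where 2.64% of all genes were lower. Col1a2 was at 12.2 and 5.30 CPM (-1.20) and Col3a1 at 2.40 and 0.813 CPM (-1.54). Of the 6, Dcn (10 and 0 counts) and Postn (66 and 27) passed the expression limit only through their RA-DIFF levels. The summed level of the 14 fibroblast markers was 1374 and 1237 CPM. Of the node and floor plate list 3 were called higher and 0 lower, of neurons 2 and 0, and of neural progenitors 2 and 1. Multiciliation and endoderm each had 0 higher and 1 lower, and 3.93% of all genes were higher. Among the higher calls, Shh had 0 and 3 counts and Dcx 5 and 8. The part of these lists in the member values was not tested.

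Between the RA-DIFF libraries few members were called, and those were Foxj1 and dynein genes. With the Htt-null label, 4 of 46 members were called higher and 1 lower than with the wild-type label, against 11.0% and 7.37% of all genes. The member counts are below that background. No Ift gene was called, their log2 ratios ran from -0.23 (Ift88) to 0.32 (Ift57) with a median of -0.02, and no Bbs or transition zone gene was called either. All 18 IFT genes with other symbols, 5 BBSome genes and 14 transition zone genes were uncalled too. The 4 members called higher were Foxj1 and 3 dynein heavy chain genes.

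Foxj1 had 1892 counts in RA-DIFF cells labelled wild type and 5834 in those labelled Htt-null, 16.9 and 59.2 CPM, which is 3.51-fold (log2 ratio 1.81, interval from 1.74 to 1.89). Dnah11, an outer arm heavy chain known from the motile cilia of the node, was at 1.75 and 5.02 CPM (1.51, from 1.28 to 1.77). Dnah6 was at 1.01 and 2.14 CPM (1.07, from 0.75 to 1.43) and Dnah2, an inner arm chain, at 5.52 and 9.80 CPM (0.83, from 0.68 to 0.98). Dnah8 alone was called lower, at 2.73 and 1.42 CPM (-0.93, from -1.24 to -0.65). The intervals of Foxj1 and Dnah11 lay wholly beyond the fold limit, that of Dnah6 began at it, and those of Dnah2 and Dnah8 included it. The test at a dispersion of 0.1 ended the calls of Dnah2, Dnah6 and Dnah8. Dnah9, under the expression limit, was at 3.66 and 8.28 CPM (1.17), and Dnah12, also under it, had 9 and 16 counts. Cdca7l lies on the other strand over 4.44% of the exon bases of Dnah11 and had 3280 and 2705 counts; its part in the Dnah11 value was not tested. The other dynein genes over the expression limit ran from -0.42 (Dnah5) to 0.19 (Dnah7a). The median was 0.06 over the 12 dynein genes past the limit and 0.15 over all 17.

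Of the 20 other motile axoneme genes over the expression limit, 3 were called higher and 0 lower between the RA-DIFF libraries (Htt-null over wild-type label), where 11.0% and 7.37% of all genes were called; most of the 20 thus did not pass the fold limit. They were named after their values were seen: Ccdc114, a dynein docking protein (1.64 and 3.77 CPM, log2 ratio 1.19), Drc1, of the nexin link (6.18 and 13.4 CPM, 1.12), and Rsph4a, of the radial spoke (1.99 and 4.26 CPM, 1.09). The median of the 29 genes in the table was 0.27. In the multiciliation list 1 gene was called higher and 1 lower: Ccdc78 at 2.52 and 5.91 CPM (1.22) and Trp73 at 3.29 and 1.22 CPM (-1.42), while of the genes under the expression limit Mcidas was at 0.0535 and 0.0508 CPM and Gmnc at 0.384 and 2.10 CPM (43 and 207 counts, 2.39).

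Marker lists of other cell types moved in the same comparison, and their part in the result was not tested; of all genes 11.0% were called higher and 7.37% lower. Of 9 genes of the node and floor plate, tissues whose cells express Foxj1, 7 passed the expression limit and 5 of these were called higher with the Htt-null label and 0 lower; their log2 ratios had a median of 2.48. Their summed level was 13.2 and 19.8 CPM in the ESC libraries and 229 and 1208 CPM in the RA-DIFF libraries, most of it from Spon1 (83.5 and 472 CPM in RA-DIFF) and Ntn1 (102 and 562 CPM), while Nog (-0.13) and Chrd (0.20) were not called. Shh was at 11.8 and 101 CPM in RA-DIFF, Noto, a node marker, had 0 and 3 counts, and T, a marker of mesoderm, node and notochord that missed the expression limit, had 68 and 1172 counts (log2 ratio 4.24). Of 14 fibroblast markers, 13 passed the limit and 12 were called higher (summed level 818 and 3066 CPM in RA-DIFF, and 1374 and 1237 CPM in ESC, where Fn1 made up most of it). Of 12 neuronal markers 10 were called lower (3102 and 1397 CPM in RA-DIFF), of 8 pluripotency markers 6 lower, of 8 neural progenitor markers 1 higher and 3 lower, and of 5 endoderm markers past the limit 2 higher (17.7 and 49.7 CPM summed over all 8, of which Dab2 alone gave 12.3 and 42.8). The paper, with another list of neuron genes, reports the reverse direction for most of them, higher in Htt-null cells after differentiation. The marker directions given here turn if the RA-DIFF labels are exchanged.

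From the miR-34/449 family, which is known for its abundance in multiciliated cells, 4 miRNAs were analysed here, miR-34a-5p, miR-34b-5p, miR-34c-5p and miR-449a-5p. The mature sequences of 3 of them in RefSeq share a seed, bases 2 to 8, shown in capitals.
miR-34a-5p: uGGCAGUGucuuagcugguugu
miR-34b-5p: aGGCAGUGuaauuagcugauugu
miR-449a-5p: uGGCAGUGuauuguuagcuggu
The level of miR-34a-5p was 433 and 495 CPM in the ESC libraries and 76.2 and 62.2 CPM in the RA-DIFF libraries, log2 ratios of -2.51 and -2.99. miR-34c-5p was at 200 and 273 CPM in ESC and 640 and 662 CPM in RA-DIFF (1.68 and 1.28), and miR-34b-5p at 7.44 and 11.6 CPM against 31.8 and 32.0 CPM (2.08 and 1.46). These levels depend on scaling, since library size alone shifted all miRNAs by -1.15 and -1.86 in the RA comparisons, and under Htt-null labels miR-34b-5p and miR-34c-5p then had the opposite sign. miR-449a-5p had 14, 62, 45 and 21 counts in the 4 libraries, and between the ESC libraries its log2 ratio was 1.86 (interval from 1.17 to 2.97). Between the RA-DIFF libraries none of the 4 passed a log2 ratio of 0.75, with values from -0.51 (miR-449a-5p) to 0.05 (miR-34c-5p), but with library size alone miR-34a-5p (-0.77) and miR-449a-5p (-0.94) did.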

How the data were processed

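The deposited RNA-seq table holds raw counts per gene, and the deposited small RNA table raw counts per mature miRNA. Per the study's methods, the authors aligned strand-specific poly-A reads to GRCm38.p4 with TopHat2 2.0.14 and counted them with HTSeq 0.6.1; small RNA reads were trimmed with cutadapt 1.3 and mapped with BWA 0.7.5a-r418 to mature miRNAs. The methods name no strand option for the counting and state that programs ran at their defaults where nothing else is given.

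The members and all gene lists were chosen with earlier results of these data known. Counts were scaled by TMM over the 4 libraries of an assay (edgeR 4.0.16 in R 4.3.3), and log2 ratios used a prior count of 2. With 1 library per condition the spread is unknown, so no test decided a call, and "called" means past the fold and expression limits; an exact test at dispersions assumed, not estimated, served only as an alternative. Ratio intervals are conditional Clopper-Pearson intervals, and CPM intervals are exact Poisson. The calling step was tested on simulated data. Class medians leave out members at 3 counts or fewer in both libraries. Exon lengths come from GENCODE vM21 on GRCm38, for all 53 members; tables were made with pandas 2.3.3, intervals with scipy 1.17.1 and figures with matplotlib 3.10.9, in Python 3.11.15.

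Named with values in every library were members called in a genotype comparison, Foxj1, the Rfx and Tctn genes, Mks1, Arl13b, Pcm1, and the 3 called members with the largest log2 ratio in each RA comparison among Ift, Bbs and dynein genes; exceptions are marked. Alternatives were library size alone, DESeq2 1.42.0 size factors, no expression limit, a fold limit of 1, a prior count of 0.25, an exact test at assumed dispersions of 0.1 and 0.01, and exchanged RA-DIFF labels. Added after seeing the data were edgeR's average log2 CPM as the limit, omission of the Dnah7 paralogues, and chromosome medians. Some promoter windows and list genes are not reported here.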

Additional observations from a re-analysis of the deposited data

Results flagged for a closer look

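Dnah6 and Dnah11 passed the fold limit in opposite directions under the same contrast, and in neither was the difference tested. Between genotypes, Dnah6 had a log2 ratio (Htt-null label to wild-type label) of -0.86 in ESC (13.6 and 7.48 CPM) and of 1.07 in RA-DIFF (1.01 and 2.14 CPM, labels as deposited). Between stages, Dnah11 had a log2 ratio (RA-DIFF to ESC) of -0.79 under wild-type labels (3.03 and 1.75 CPM) and of 1.37 under Htt-null labels (1.93 and 5.02 CPM). With the RA-DIFF labels exchanged, Dnah6 would be lower with the Htt-null label at both stages. With them exchanged, Dnah11 was called in neither RA comparison, and with library size alone its ratio under wild-type labels was -0.748, inside the fold limit.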

How the results depend on the processing

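Of 112 alternative values of the call counts and class medians, 90 counted as kept. A count was kept within 1.5 times, and a median between the medians of its genes' lower and upper interval bounds. That range can hold a change of sign. With the RA-DIFF labels exchanged, the genotype medians there went from -0.02 to 0.02 (Ift) and from 0.15 to -0.15 (dynein), and both counted as kept. In RA-differentiation the Ift median stayed above 0 and the axonemal dynein median below 0 under every alternative run. Requiring an exact test at an assumed dispersion of 0.1 left 1 member higher and 1 lower in Htt-null ESC, 2 higher (Foxj1 and Dnah11) and 0 lower between the RA-DIFF libraries, 9 higher and 4 lower with RA-differentiation under wild-type labels, and 12 higher under Htt-null labels. A fold limit of 1 left 1 lower in ESC, 0 lower between the RA-DIFF libraries and 5 lower with RA-differentiation under wild-type labels. Without the expression limit 7 members were higher and 2 lower between the RA-DIFF libraries, and 14 and 10 lower with RA-differentiation (wild type, Htt-null), since low dynein and Rfx genes then counted. With library size alone 2 members were lower between the RA-DIFF libraries (Dnah8 and Bbs2) and the Ift median there was -0.075; with DESeq2 size factors the Ift median under wild-type labels was 0.40. Exchanging the RA-DIFF labels gave 1 higher (Dnah8) and 4 lower in the genotype comparison, Ift medians of 0.70 and 0.86 and, under wild-type labels, a dynein median of -0.35. With library size alone miR-34b-5p and miR-34c-5p turned to -0.41 and -0.60 in RA-differentiation under Htt-null labels.

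With 1 library per condition, spread between cultures was not measured, so differences between libraries cannot be told apart from differences between conditions. Depth limits Dnah3, Dnah14 and Rfx6, which had fewer than 40 counts in every library. Exons shared with a gene on the other strand, and the Dnah7 paralogues, limit single genes as stated.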
